A study of Drosophila melanogaster with 6 samples.

Results

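The heat shock protein genes examined here are 10 genes of Drosophila melanogaster, taken by symbol from a table of 16727 genes: the small heat shock protein genes Hsp22, Hsp23, Hsp26, Hsp27, Hsp67Bc and l(2)efl, the Hsp70-family genes Hsp68 and Hsc70-4, the J-domain gene DnaJ-1 and the Hsp90 gene Hsp83. All 10 symbols stood in the table, 9 had at least 1 count and 9 passed the low-count filter; Hsp22 was at 0 in every library. Messenger RNA of eye-antennal imaginal discs, the larval epithelia that give rise to the eye, antenna and head capsule, was measured by 3′ tag sequencing. All larvae, the day 5 controls included, had the genotype y w; +/+; +/+, were reared at 25 °C and ate a pupation-preventing food made from an erg2 mutant yeast, which lacks the precursors of the moulting hormone. Discs were dissected 5 days after egg laying, when they were still growing, or 11 days after, when growth was complete, with 3 libraries per day and at least 30 discs in each. The days therefore differ in growth state, larval age and time on this food together, and these cannot be told apart.

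Heat shock proteins are molecular chaperones: they bind unfolded or partly folded proteins, keep them from aggregating, and help them fold or pass on to degradation. Small heat shock proteins share an alpha-crystallin domain and hold clients without using ATP. Hsp70 proteins fold clients in ATP cycles that J-domain proteins start, and Hsp90 proteins mature kinases and hormone receptors with the help of cochaperones. Heat and other stresses induce many of these genes through the heat shock transcription factor Hsf, and in fly cells and discs several small heat shock genes are also known to respond to the moulting hormone ecdysone. Of the group as named, Hsp22 protein is known from mitochondria and Hsp27 protein from the nucleus, so that not all products are cytosolic.

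The libraries held 6542782 to 9049513 counts, and 3 counts in a library stood for 0.321 to 0.46 CPM (counts per 1000000 counts of the library, scaled with TMM, a factor that sets the bulk of genes equal between libraries). The 10 genes together took 0.493 to 0.547% of all counts. A pair of abundant non-coding RNAs took 14.45 to 19% of all counts at day 5 and 26.31 to 40.78% at day 11. On the TMM scale the 10 genes summed to 4625 to 4887 CPM at day 5 and 5285 to 6031 CPM at day 11. All 14 listed eye-antennal identity genes had counts, with summed levels of 2225 to 2898 CPM, so the labelled tissue was there on both days. At day 11, 7 of these were called lower and 1 higher, beside 17.9% and 19.1% of all genes tested. Markers of several cell types were counted too. All 15 muscle, 8 haemocyte, 6 fat body, 7 glia, 8 neuron and 6 salivary gland markers had counts in at least 1 library. Such counts alone do not show that each of these cell types was present. Some of these markers moved with the day. At day 11, 5 of 8 neuron, 2 of 5 tested glia and 2 of 6 salivary gland markers were called higher and none lower. Summed neuron markers ranged over 286 to 386 CPM at day 5 and 474 to 699 CPM at day 11. Summed salivary gland markers ranged over 4.93 to 17.3 CPM and then 103 to 1223 CPM, highest in day 11 replicate 3. Summed glia markers stood at 170 to 177 CPM and then 149 to 166 CPM. The part of these cells in the differences of the heat shock genes was not tested. In bulk samples, fewer cells of a type and less RNA per cell cannot be told apart. Whether the 3 libraries of a day stem from independent rearings is not stated in the labels, and the spread behind each p-value may therefore be technical.

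At day 11, 3 of the 9 heat shock genes tested were higher and none was lower than at day 5 (edgeR quasi-likelihood test, adjusted p below 0.05 over 8010 genes). Hsp67Bc was 4.65-fold, Hsp23 2.26-fold and DnaJ-1 1.79-fold higher. Among all genes tested 19.1% were called higher and 17.9% lower, 37.0% in either direction. The constitutive and most counted member, Hsc70-4, differed by 1.05-fold, and the remaining 5 were not called in either direction. At an unadjusted p below 0.05, 4 members were higher and 1, Hsp83, was lower, beside 23.8% and 22.7% of all genes tested. DESeq2 and limma-voom also called 0 members lower. The libraries of the days did not overlap for 5 of the 9, 4 above and 1 below, against 50.8% of all genes tested, 25.6% above and 25.2% below. The median log2 fold change of the 9 genes was 0.79, which is the value of Hsp68, beside -0.0065 over all genes tested. This median was unstable: it was 0.28 without day 11 replicate 2, 0.31 without day 5 replicate 1 and 0.27 with limma-voom.

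**Figure D1:**
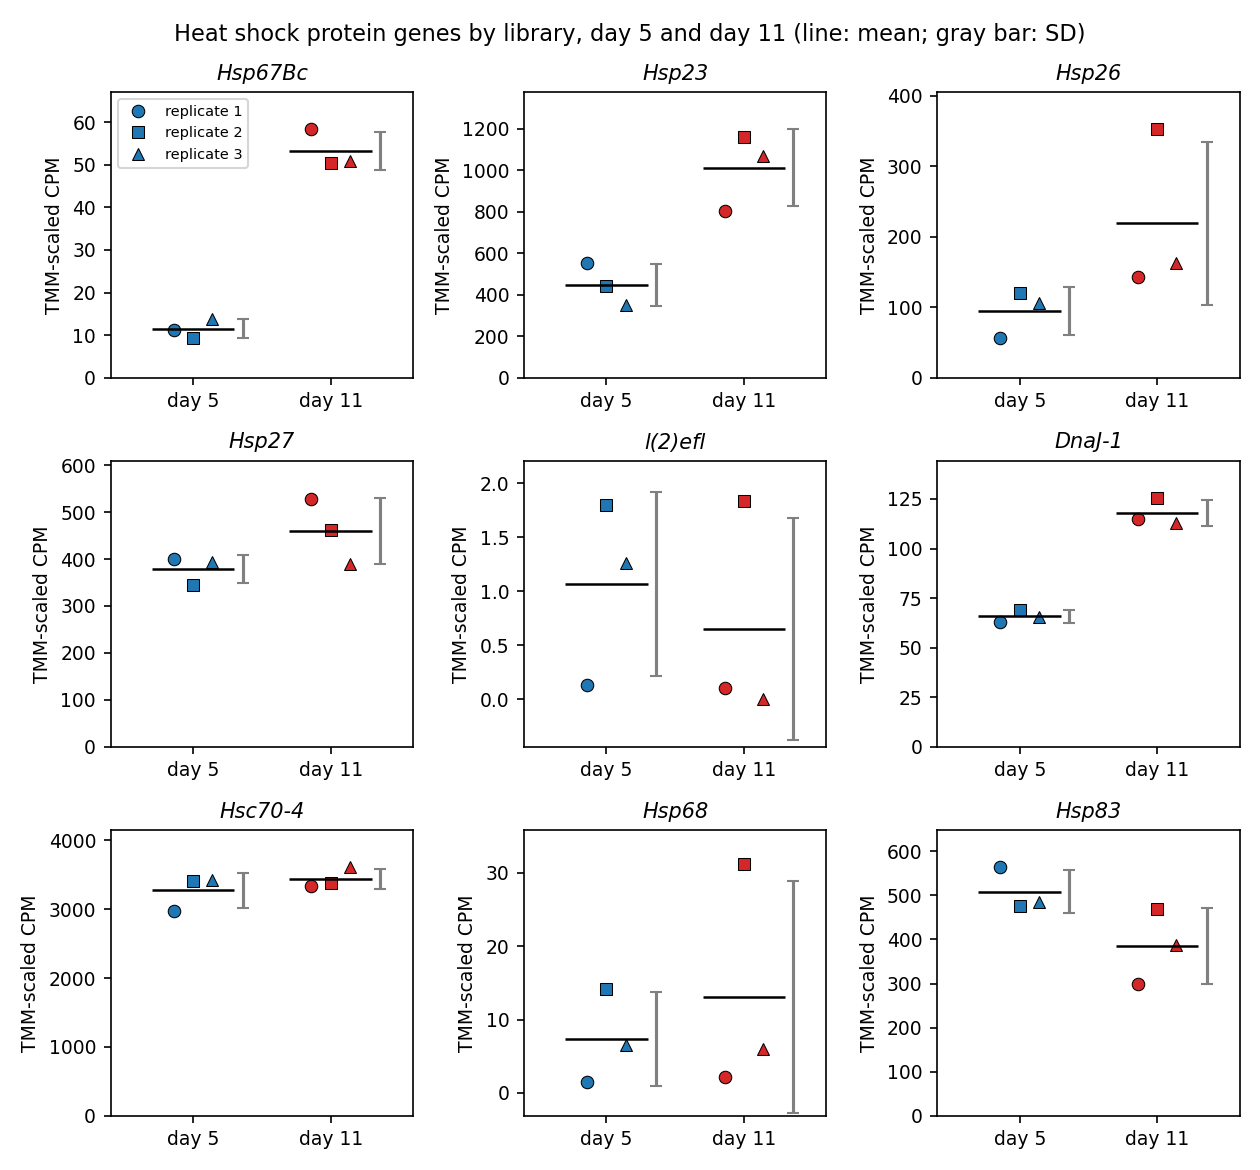
TMM-scaled CPM (vertical axis) of the 9 heat shock genes with counts, in 3 libraries of day 5 (blue) and 3 of day 11 (red). Symbols mark the replicate number, black lines the mean and gray bars the SD. Hsp67Bc, Hsp23 and DnaJ-1 stand apart by day, while Hsp68 is highest in the library numbered 2 on each day.

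Hsp67Bc, a small heat shock protein known in flies to bind the cochaperone Starvin and to promote autophagy, moved furthest. It stood at 11.2, 9.38 and 13.8 CPM in the day 5 libraries and at 58.4, 50.5 and 50.9 CPM in the day 11 libraries. Each day 11 library was above every day 5 library, and the spread within a day was small beside the gap. Means were 11.5 ± 2.204 and 53.3 ± 4.41 CPM (SD, n = 3 each). On the log2 scale the change was 2.22 (SE 0.17, 95% interval 1.84 to 2.595, edgeR adjusted p = 4.41e-06). By the size of its log2 fold change, in either direction, Hsp67Bc ranked 419 of 8010 genes. The call held in all 18 other settings, with log2 fold changes of 1.95 to 2.51. Over the 6 libraries, the patterns most like that of Hsp67Bc among 3744 other genes of at least 20 CPM were those of CG10625 and DOR. Their root mean square differences from it were 0.105 and 0.134, in log2 CPM centred on the mean of the 6 libraries.

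Hsp23, a small heat shock gene known to be expressed in imaginal discs and to respond to ecdysone, rose as well. The day 5 libraries held 553, 439 and 351 CPM of Hsp23 and the day 11 libraries 804, 1161 and 1069 CPM. The days did not overlap. Its log2 fold change was 1.18 (SE 0.18, 95% interval 0.77 to 1.59, edgeR adjusted p = 0.000829), and it was called in all 18 other settings, from 0.88 under total-count scaling to 1.52 with the transcript length trend removed. Closest in pattern were CG30392 and mdy (root mean square differences 0.0934 and 0.104).

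Hsp26, a further small heat shock gene of this kind, had a similar difference and a far wider spread. Its levels were 56.5, 121 and 106 CPM at day 5 and 142, 352 and 162 CPM at day 11. No day 11 library fell below a day 5 library, but day 11 replicate 2 stood far above the other day 11 libraries. The log2 fold change of 1.21 (SE 0.47, 95% interval 0.01 to 2.41) was not called (edgeR adjusted p = 0.105). The biological coefficient of variation of Hsp26 was 0.393, which is 2.31 times the value fitted for genes of its level, a ratio at percentile 98.6 of the genes tested. Calls for Hsp26 depended on the setting, and it was called higher in 4 of 18 others: limma-voom (adjusted p = 0.0282) and edgeR without robust shrinkage (adjusted p = 0.0247) were among these. Without day 11 replicate 2 the log2 fold change was 0.69 (adjusted p = 0.124). Without both libraries numbered 2, a setting chosen after the data were seen, it was 0.90 (SE 0.28, adjusted p = 0.0407). The patterns most like that of Hsp26 were those of vkg, a collagen IV gene that haemocytes and fat body express, and Rh50 (root mean square differences 0.296 and 0.327). Summed haemocyte markers were 57.3, 82.6 and 87.9 CPM at day 5 and 95.1, 236.8 and 142.7 CPM at day 11. Of 6 tested, 2 were called higher and none lower, beside 19.1% and 17.9% of all genes tested. None of the 8 was at 0 in all libraries. Summed fat body markers were 637, 302 and 63.4 CPM at day 5 and 73.7, 962 and 118 CPM at day 11, with 0 of 5 tested called. The highest haemocyte sum, fat body sum and Hsp26 level of day 11 were in the same library, replicate 2. At day 5 they were not: the haemocyte sum was highest in replicate 3 and Hsp26 in replicate 2. The day 5 fat body sum was highest in replicate 1, where Hsp26 was lowest. On each day the libraries of Hsp26 stood in the same order as those of Hsp68 and Hsp70Bb. The part of haemocytes and fat body in the value of Hsp26 was not tested.

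Hsp27 differed little between the days. It was measured at 399.8, 344 and 393 CPM at day 5 and at 529, 462 and 389 CPM at day 11. Day 11 replicate 3 lay within the day 5 range. The log2 fold change was 0.28 (SE 0.13, 95% interval -0.01 to 0.57, edgeR adjusted p = 0.124), and Hsp27 was called higher in 1 of 18 other settings, the one without the trend over transcript length (0.40, adjusted p = 0.0376). The nearest patterns were those of the Hippo pathway gene ex and of knk.

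These small heat shock genes lie in 1 cluster. From Hsp67Bc to Hsp27 it spans 14184 bases of chromosome 3L, from 9371511 to 9385694 in dm6 coordinates, and also holds Hsp22, Hsp67Ba, CG4461 and the gene listed as Hsp67Bb, now named CG4456. Hsp67Bc (9371511 to 9372497) and Hsp26 (9376418 to 9377427) are on the minus strand, and Hsp23 (9381882 to 9382765) and Hsp27 (9384063 to 9385694) on the plus strand. Every annotated transcript of these 4 is a single exon. Differences within the cluster were unequal for some of these genes. The 95% interval of Hsp67Bc (1.84 to 2.595) lay wholly above those of Hsp23 (0.77 to 1.59) and Hsp27 (-0.01 to 0.57). That of Hsp23 lay above that of Hsp27. The wide interval of Hsp26 (0.01 to 2.41) overlapped each of them. Hsp67Ba, a small heat shock gene next to Hsp26, went from 36.1, 29.2 and 25.8 CPM to 36.01, 51.6 and 40.9 CPM. An annotated antisense transcript, CR43481, overlaps it and had at most 2.24 CPM. Hsp67Ba was at the edge of the threshold (log2 fold change 0.49, SE 0.18, edgeR adjusted p = 0.0476), its days overlapped, and the call was lost in 10 of 18 other settings. CG4461 had 1 count in all libraries together. The genes flanking the cluster, Fdxh and CG4080, were not called, at log2 fold changes of -0.12 (SE 0.31) and 0.29 (SE 0.15).

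**Figure D2:**
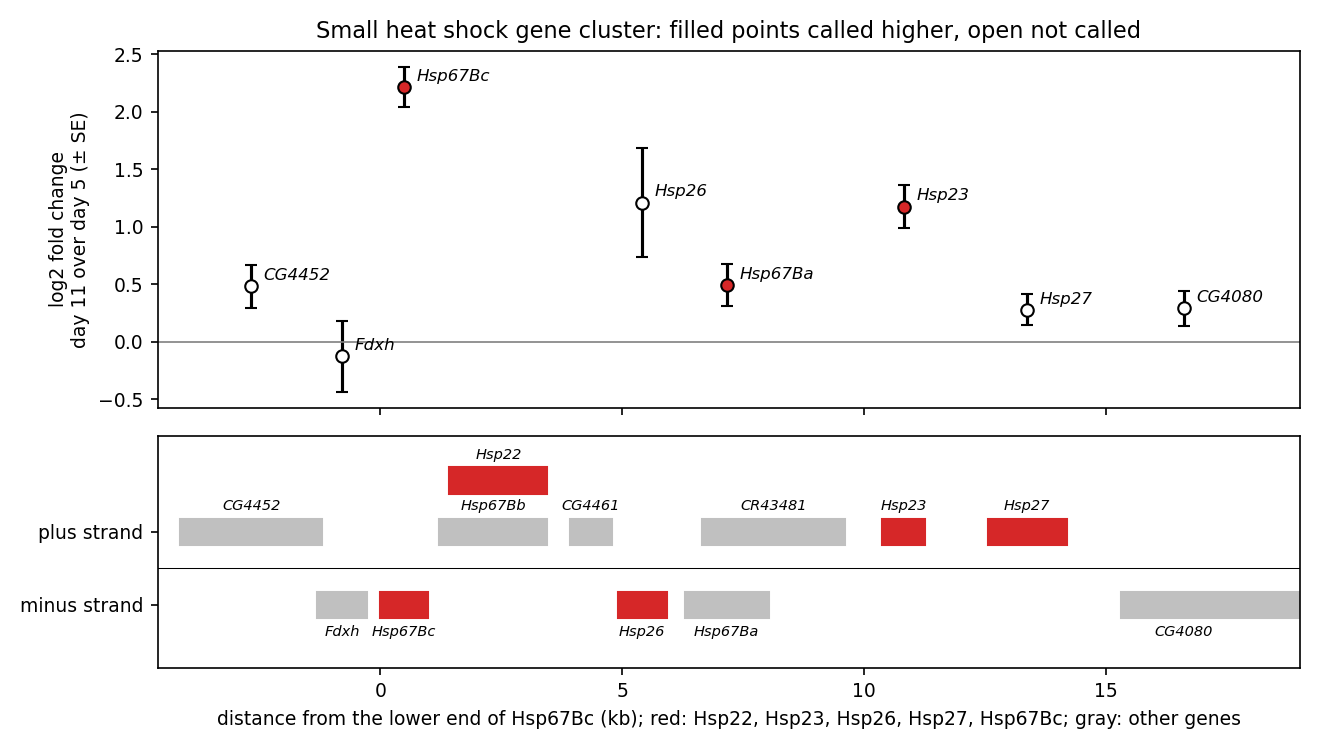
The small heat shock gene cluster, with distance from the lower end of Hsp67Bc in kb on the horizontal axis. Above, points give the log2 fold change of day 11 over day 5 with its SE for each gene tested (filled: called higher, open: not called); below, boxes give the annotated spans on the plus and minus strands, CG4080 running on past the right edge. Hsp67Bc at 2.22, Hsp23 at 1.18 and Hsp67Ba at 0.49 are called higher, Hsp27 at 0.28 is not, and Hsp22 has no point because it has no counts.

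Hsp22 had 0 counts in all 6 libraries, but this cannot be read as no expression. Its annotated span (chromosome 3L, 9372931 to 9374964, plus strand) lies inside that of CG4456 (9372722 to 9374964) with the same end, and all of its exonic sequence is shared with that gene on the same strand. The partner had 1 count in all, in day 11 replicate 3. Of 287 protein-coding genes in the table whose exonic sequence is wholly shared with another gene on the same strand, 270 (94.1%) had no count in any library, against 15.7% of 12757 protein-coding genes that share none. The sources used here do not say how reads matching 2 genes were counted. A count of 0 alone would allow up to 0.321 to 0.46 CPM per library, and reads left out because they match both genes come on top of that.

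The small heat shock gene l(2)efl, a relative of the vertebrate alpha-B-crystallin gene and on another chromosome (2R, 23684651 to 23685543), was near the counting floor. It had 1, 15 and 10 counts at day 5 and 1, 12 and 0 at day 11, or at most 1.84 CPM. The days overlapped in full, and the log2 fold change was -0.82 (SE 1.16, edgeR adjusted p = 0.614). With 1 library left out it ranged from -3.84 (adjusted p = 0.0514, without day 11 replicate 2) to -0.22 (adjusted p = 0.921, without day 5 replicate 2), and it was called in none of 15 other settings. The 2 patterns most like that of l(2)efl were those of the muscle genes Mlp60A and wupA, though at root mean square differences as large as 0.849 and 0.87. Summed muscle markers were highest in day 5 replicate 2, at 1163 CPM against 494 and 580 CPM in the other day 5 libraries. At day 11 they were 365 to 507 CPM. Of the 15 markers 2 were called lower, beside 17.9% of all genes tested. None of the 15 was at 0 in all libraries. The antisense neighbour St3 had 0.321 to 2.78 CPM, and without the strand setting of the counting, reads of the pair cannot be told apart. Other small heat shock genes outside the cluster were few: CG14207 fell from 37.9, 46.2 and 46.8 CPM to 24.2, 31.0 and 22.4 CPM (-0.76 on the log2 scale, SE 0.17, edgeR adjusted p = 0.00416). CG7409 and CG13133 had too few counts to test. The fall of CG14207 held in all 18 other settings.

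DnaJ-1, the main cytosolic J-domain partner of Hsp70 proteins, was among the steadiest members. It stood at 62.8, 68.9 and 65.6 CPM at day 5 and 115.1, 125 and 113 CPM at day 11. The groups were tight and far apart. The log2 fold change was 0.84 (SE 0.13, 95% interval 0.57 to 1.12, edgeR adjusted p = 0.0004), with values of 0.57 to 0.88 and a call in all 18 other settings. Within a day its log2 CPM varied with an SD of 0.0737, at percentile 2.51 of the genes tested. CG43986 and Dscam1 had the nearest patterns, at root mean square differences of 0.0582 and 0.0599. Of 21 other J-domain genes 17 were tested, 4 were higher and 1 lower, beside 19.1% and 17.9% of all genes. Their median log2 fold change was 0.12, and -0.17 under total-count scaling. CG7133 rose (0.83, SE 0.15, adjusted p = 0.00122) and Csp, which serves synaptic vesicles, fell (-0.92, SE 0.14, adjusted p = 0.000455). The other called genes, chosen for mention after their values were seen, were jdp (2.91, SE 0.26), CG5001 (0.97, SE 0.21) and CG10565 (0.56, SE 0.19). CG10565 lost its call in 10 of 18 other settings. Droj2, a further cytosolic J-domain gene also chosen after its values were seen, was not called (-0.09, SE 0.12).

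Hsc70-4 encodes the constitutive cytosolic Hsp70 protein, which also strips clathrin from vesicles. Levels were 2977, 3413 and 3431 CPM at day 5 and 3337, 3378 and 3610.2 CPM at day 11. The days overlapped, and the log2 fold change was 0.07 (SE 0.11, edgeR adjusted p = 0.637). The 95% interval, -0.17 to 0.31 or 0.89- to 1.24-fold, limits any difference under TMM scaling. Scaling by total counts, which shifted the median of all genes to -0.28, turned the sign of Hsc70-4 to -0.20 (adjusted p = 0.309). Nearest in pattern to Hsc70-4 were CG6439 and CG3731, at root mean square differences of 0.04997 and 0.0513.

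Hsp68, a heat-inducible relative of Hsp70, had the largest spread among the members. It was counted at 1.45, 14.2 and 6.57 CPM at day 5 and at 2.14, 31.2 and 5.95 CPM at day 11. In both days replicate 2 was highest and replicate 1 lowest, and the days overlapped. The log2 fold change of 0.79 had an SE of 1.29 (95% interval -2.65 to 4.23, edgeR adjusted p = 0.68). It became -0.91 (adjusted p = 0.551) without day 11 replicate 2 and -0.03 (SE 0.73, adjusted p = 0.982) without both libraries numbered 2. The biological coefficient of variation was 1.01, which is 4.18 times the value fitted for genes of this level. The within-day SD of its log2 CPM was 1.73, at percentile 99.7 of the genes tested, whose median was 0.257.

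The strongly heat-inducible Hsp70 copies, listed as Hsp70Aa, Hsp70Ab, Hsp70Ba, Hsp70Bb, Hsp70Bbb and Hsp70Bc, were counted low. They are near-identical, so that reads may be divided among them or left out, and their single values are uncertain. As a sum they were highest in replicate 2 and lowest in replicate 1 on each day. Together they had 3, 114 and 32 counts at day 5 and 38, 235 and 47 counts at day 11, or 0.396, 13.7 and 4.04 CPM and 4.06, 36.1 and 6.82 CPM. Most of these came from Hsp70Bb (0.396, 11.5 and 4.04 CPM, then 2.99, 32.1 and 5.66 CPM), while Hsp70Ab and Hsp70Bbb had no counts. As with Hsp68, replicate 2 was highest and replicate 1 lowest on each day for Hsp70Bb. The log2 fold change of Hsp70Bb was 1.31 (SE 1.39, edgeR adjusted p = 0.516), and -0.32 without day 11 replicate 2. Hsp70Bc, at 0, 13 and 0 counts and then 8, 25 and 8 counts, was also highest in replicate 2 of each day, and Hsp70Aa and Hsp70Ba had 6 and 2 counts in all. The genes of at least 20 CPM most like Hsp68 were the haemocyte gene Hml and CG12310, at distant root mean square differences of 0.795 and 0.9445. The summed haemocyte markers were highest in replicate 2 at day 11 and in replicate 3 at day 5. Muscle markers were highest in day 5 replicate 2. The part of these in the levels of Hsp68 and of the Hsp70 copies was not tested.

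**Figure D3:**
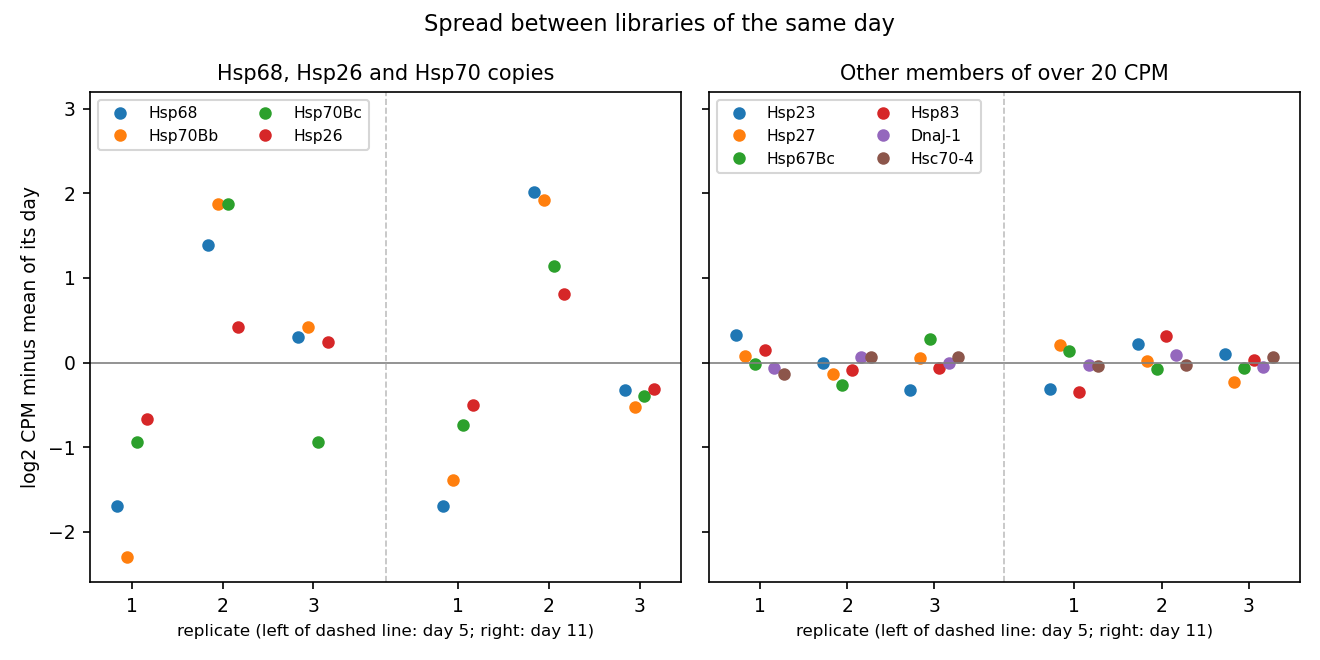
Deviation of log2 CPM from the mean of its day (vertical axis) in each library, for Hsp68, Hsp26 and 2 Hsp70 copies (left panel) and for the 6 other heat shock genes of over 20 CPM (right panel). Points left of each dashed line are day 5 replicates 1 to 3 and points right of it day 11 replicates 1 to 3. Hsp68 lies 1.39 and 2.02 above the mean of its day in the libraries numbered 2, while DnaJ-1 and Hsc70-4 stay within 0.14.

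Hsp83, the cytosolic Hsp90 gene, was the one member whose day 11 libraries all lay below those of day 5. It stood at 564, 476 and 486 CPM at day 5 and at 298, 470.02 and 388 CPM at day 11. The gap was narrow, since day 11 replicate 2 came close to the lowest day 5 library. The log2 fold change of -0.40 (SE 0.16, 95% interval -0.75 to -0.05) was not called (edgeR adjusted p = 0.0667). In 5 of 18 other settings it was called lower, among them without day 11 replicate 2 (-0.57, adjusted p = 0.011), without both libraries numbered 2 (-0.62, adjusted p = 0.0305) and under total-count scaling (-0.70, adjusted p = 0.0087). Without day 11 replicate 1, its lowest library, the difference shrank to -0.24 (adjusted p = 0.12), and without day 5 replicate 1 it was -0.33 (adjusted p = 0.208). The nearest patterns were those of CG1969 and Hsc70-2, at root mean square differences of 0.0677 and 0.0735. Hsc70-2, an Hsp70-family gene, was likewise not called (log2 fold change -0.43, SE 0.17, adjusted p = 0.0692). An antisense neighbour of Hsp83, CG14966, had 7.16 to 15.9 CPM.

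**Figure D4:**
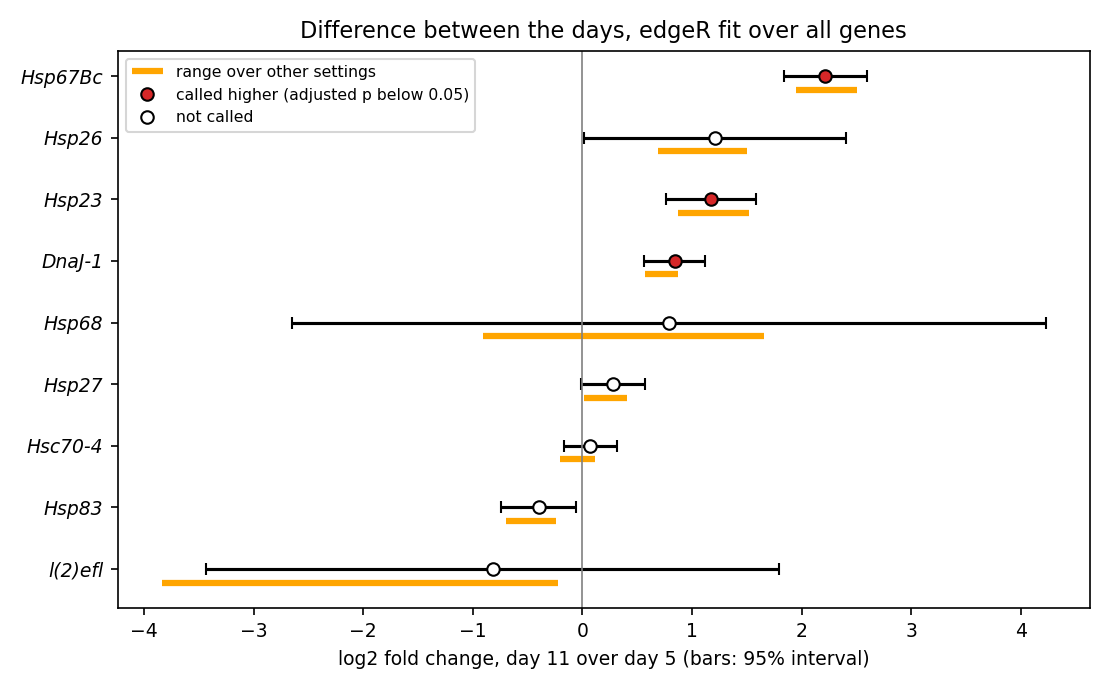
Log2 fold change of day 11 over day 5 (horizontal axis) for the 9 heat shock genes tested, with 95% intervals (black bars) and the range over the other settings (orange; 15 settings for l(2)efl and 18 for each other gene). Filled points are called higher and open points not called. The intervals of Hsp67Bc, Hsp23 and DnaJ-1 lie well above 0, that of Hsp26 starts at 0.01, and those of Hsp68 and l(2)efl run from under -2 to over 1.

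A list of the heat shock factor and genes tied to it held 4 genes, chosen with earlier results of these data known. Of these 3 were tested and all 3, Hsf, stv and Hsromega, were higher at day 11, beside 19.1% of all genes. The fourth, Hsp67Bb, had 1 count. The heat-inducible Hsp68 and Hsp70Bb are not in this list and were not called (edgeR adjusted p = 0.68 and 0.516). Hsf, the transcription factor itself, went from 45.7, 49.4 and 49.0 CPM to 75.6, 68.3 and 59.5 CPM (log2 fold change 0.50, SE 0.14, edgeR adjusted p = 0.0157). All day 11 libraries were above day 5, but the call of Hsf was lost in 4 of 18 other settings, with adjusted p = 0.355 under total-count scaling. stv, which encodes Starvin, a BAG-domain cochaperone of Hsp70 proteins, stood at 57.6, 60.4 and 63.1 CPM and then at 209, 149.8 and 165 CPM. With a log2 fold change of 1.53 (SE 0.15, adjusted p = 2.24e-05) it was called in all 18 other settings. Hsromega, a heat-induced nuclear non-coding RNA gene, rose from 758, 588 and 458 CPM to 1154, 1531 and 1909.8 CPM (1.35, SE 0.23, adjusted p = 0.00222), also in all 18 other settings. In none of Hsf, stv and Hsromega was replicate 2 the highest library of day 11, though it was for Hsf at day 5. Replicate 2 was the highest day 11 library for Hsp68, Hsp70Bb and Hsp26, and also for Hsp23, DnaJ-1, Hsp83 and l(2)efl. It was not for Hsp27, Hsp67Bc and Hsc70-4.

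Cochaperones of Hsp90 and Hsp70 moved mostly down. Of 14 tested, 8 fell and 1 rose, beside 17.9% and 19.1% of all genes tested. The median log2 fold change of the 14 was -0.65. Hop, which links Hsp70 to Hsp90, went from 88.0 ± 3.15 to 40.2 ± 4.65 CPM (SD, n = 3 each; log2 fold change -1.13, SE 0.14, edgeR adjusted p = 0.000112). FKBP59, an Hsp90-binding immunophilin, and Sgt, a tetratricopeptide cochaperone, had -1.02 (SE 0.19) and -0.84 (SE 0.14). unc-45, a myosin chaperone that binds Hsp90, rose by 0.72 (SE 0.20, adjusted p = 0.0138) and was chosen for mention after its values were seen. No cochaperone was called higher under total-count scaling, without day 5 replicate 2 and without both libraries numbered 2. Between 8 and 9 of the 14 were called lower in every other setting. The near-identical pair HIP and HIP-R is among the 8, so their counts are uncertain singly.

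Chaperonin and prefoldin genes, whose products fold actin and tubulin, were lower in part. Of 8 CCT subunit genes 5 fell and none rose, beside 17.9% and 19.1% of all genes tested. The median log2 fold change of the 8 was -0.41, or -0.68 under total-count scaling. Tcp-1eta (-0.70, SE 0.14), CG8258 (-0.76, SE 0.16) and CG5525 (-0.45, SE 0.12) had the smallest p of those with at least 20 CPM. The count of CCT subunit genes was 3 without day 5 replicate 2. Of 6 prefoldin subunit genes 4 fell and none rose (median -0.82), with CG10635 at -1.57 (SE 0.20), CG7770 at -1.01 (SE 0.14) and CG7048 at -0.70 (SE 0.17). With the transcript length trend removed, 2 prefoldin genes were lower and their median was -0.37. In other Hsp70-family genes 2 of 4 tested fell, and both belong to organelles: Hsc70-3 of the endoplasmic reticulum (-0.71, SE 0.12) and Hsc70-5 of mitochondria (-0.63, SE 0.20). The call of Hsc70-5 was lost in 4 of 18 other settings. That count of Hsp70-family genes was 1 without day 5 replicate 1 and 4 under total-count scaling. Of the 9 heat shock genes tested, 3 rose, beside 19.1% of all genes tested, and the other 6 were not called. The lists were not tested against each other.

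**Figure D5:**
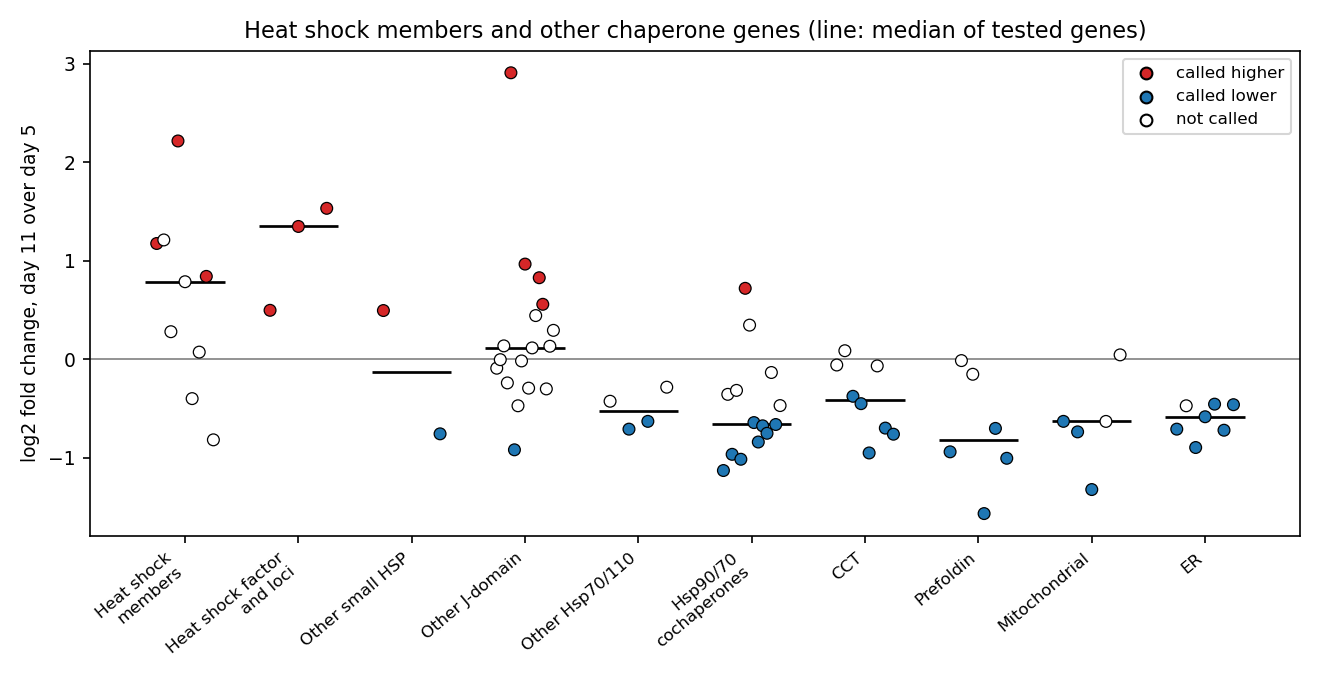
Log2 fold change of day 11 over day 5 (vertical axis) for every tested gene of the 10 heat shock genes and of 9 other chaperone lists, with the list median as a black line. Red points are called higher, blue lower and white not called. The heat shock genes spread from -0.82 to 2.22 around a median of 0.79 that falls to 0.28 without day 11 replicate 2, and the median of the cochaperones is -0.65.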

How the data were processed

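The authors deposited raw, whole-number counts for each gene, with 1 column per library and 0 columns left unmapped. Per the labels' protocols, libraries were prepared from polyadenylated RNA by the QuantSeq 3′ FWD method. Per the submitters' processing notes, the tools were FastQC, cutadapt and STAR 2.6.1d, and the build dm6. The sources used here give no counting program, annotation, strand setting or rule for multiply matching reads. Loci come from the Ensembl annotation of BDGP6 (dm6 coordinates), where 16507 of 16727 symbols had a match.

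The main analysis used edgeR 4.0.16 in R 4.3.3: filterByExpr, TMM factors and a robust quasi-likelihood fit of day 11 over day 5. Two-sided p-values of the 8010 genes tested were adjusted by the Benjamini-Hochberg method (threshold 0.05). SE and 95% intervals come from that fit. An exact permutation test of 3 against 3 cannot go below 0.1. Libraries of a day differed by more than sampling noise (chi-square per degree of freedom 8.45 to 86.7). The script was tested on simulated data, where 59.2% of 2-fold and 93.8% of 4-fold changes were called. Of 163 calls in that simulation, 15 were false.

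Members and lists were chosen with earlier results of these data known. All 10 members are named. From each other list, the text names up to 3 called genes of at least 20 CPM by smallest p, and all Hsp70 copies and heat shock factor list genes. For likeness, the 2 genes nearest to each member in centred log2 CPM (prior count 2) are named. Alternatives were DESeq2 1.42.0 size factors, upper-quartile and total-count scaling, removal of a pair of abundant non-coding RNAs, other filters, the DESeq2 Wald test, limma-voom (limma 3.58.1), no robust shrinkage, a replicate block, removal of the transcript length trend (a loess fit), each library left out, and, chosen after seeing the data, both libraries numbered 2 left out.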

Additional observations from a re-analysis of the deposited data

How the results depend on the processing

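Across the 18 other settings, 3 to 4 heat shock genes were called higher, and Hsp67Bc, Hsp23 and DnaJ-1 kept their calls in each. The number called lower was 0 in most and 1, Hsp83, under total-count scaling, without the low-count filter and with the transcript length trend removed; with 1 library left out it ranged from 0 to 1, and without both libraries numbered 2 it was 1. Signs turned for Hsp68 (-0.91 without day 11 replicate 2, -0.03 without both libraries numbered 2) and Hsp70Bb (-0.32 without day 11 replicate 2). The sign of Hsc70-4 turned under total-count scaling (-0.20), where the median of all genes tested was -0.28. None of these was called, and the cause was not tested. With 1 library left out, Hsp68 ranged from -0.91 to 1.66 Hsp70Bb from -0.32 to 2.56 and l(2)efl from -3.84 to -0.22. The median of the tested heat shock genes ranged from 0.274 to 0.876 over the settings. Over all genes, 2202 to 3139 were called in place of 2965. Total-count scaling gave 865 higher and 2207 lower, so that 28.2% of calls were higher in place of 51.7%.

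The replicate numbers are not shown to pair the libraries: deviations of same-numbered libraries correlated at 0.0497, 0.194 and -0.0858. Day 5 replicates 1 and 2 correlated best with the day 11 library of their own number. Day 5 replicate 3 correlated best with day 11 replicate 1. With a replicate block 2940 genes were called, 4 heat shock genes were higher, Hsp26 among them (log2 fold change 1.17, adjusted p = 0.00127), and 0 lower; Hsp70Bb was called too (1.34, adjusted p = 0.0187). Counts of l(2)efl, Hsp22 and most Hsp70 copies lie at or near the counting floor; for Hsp22 and the Hsp70 copies, depth and reads left out for matching several genes cannot be told apart.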

Other observations

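Chaperones of the organelles were also lower in part at day 11. Among all genes tested, 17.9% were called lower and 19.1% higher. Of 7 endoplasmic reticulum chaperone genes tested 6 fell and none rose (median log2 fold change -0.58), among them ERp60 (-0.72, SE 0.14) and the calreticulin gene Crc (-0.58, SE 0.13); without day 5 replicate 1 the count was 3. Of 5 mitochondrial chaperone genes tested 3 fell and none rose (median -0.63, or -0.41 without day 11 replicate 1 and 0.0325 without the low-count filter, which brings in low genes), with CG11267, a mitochondrial Hsp10 gene, at -1.32 (SE 0.14, edgeR adjusted p = 3.08e-05) and Hsp60 at -0.74 (SE 0.20). A list of ecdysone receptor and ecdysone-related genes was used because small heat shock genes are known to respond to this hormone. Of 14 tested, 8, EcR and br among them, were not called, 5 rose and 1 fell. Eip93F (6.41, SE 0.29), ftz-f1 (0.84, SE 0.13) and Eip75B (0.55, SE 0.13) had the smallest p of those with at least 20 CPM; E23 (2.82, SE 0.23) and ImpE2 (2.20, SE 0.63), which rose, and Eip74EF (-0.83, SE 0.24), which fell, were chosen after their values were seen. Eip75B and Eip74EF each lost their call in 2 of 18 other settings and ImpE2 in 7 of 17; ImpE2 fell to 1.29 (adjusted p = 0.0388) without day 11 replicate 2 and was not called without day 5 replicate 2 (adjusted p = 0.109). Hsc70-5, one of the mitochondrial genes, was -0.41 without day 11 replicate 1. Whether the ecdysone-related genes and the small heat shock genes are linked was not tested.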
